A study of Mus musculus with 6 samples.

Results

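The genes described here are 10 transcription factors of early B-cell development, Ebf1, Pax5, Tcf3, Tcf12, Foxo1, Ikzf1, Ikzf3, Bach2, Lef1 and Sox4. They were chosen by symbol, by a rule that uses no measured value but was written with earlier results of these data known, and make up 10 of the 37991 gene identifiers counted. RNA was sequenced from cells that the study calls pre-B, of 3 stages, with 2 libraries a stage and 6 in all. Wild type cells came from C57BL/6 littermates without the transgene at 4 to 6 weeks of age, and premalignant cells from heterozygous Eμ-Myc mice of the same age. Malignant cells came from heterozygous Eμ-Myc mice of 10 to 20 weeks with spontaneous lymphoma. In this model the immunoglobulin heavy chain enhancer Eμ drives Myc in the B lineage. The cells were sorted from bone marrow as high for B220 and low for IgM and IgD. The methods describe the wild type and premalignant cells of this gate as both pro-B and pre-B cells. The malignant cells are described there as transformed pre-B cells, positive for B220 and negative for both IgM and IgD. Individual animals served as the replicates, and a lymphoma can be 1 clone. Wild type and premalignant mice were female and malignant mice of both sexes, so age and sex cannot be told apart from stage for the malignant cells. Myc served as the check of the labels. It lay at 33.8 and 41.4 CPM (counts scaled to a common library size) in wild type cells. In premalignant cells it was at 1164 and 1155 CPM, and in malignant cells at 1732 and 1578 CPM. The check held for wild type against transgenic libraries. Myc cannot check the premalignant against the malignant labels, since both stages carry the transgene.

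Early B-cell identity is built by a network in which these factors act on each other. The E proteins encoded by Tcf3 and Tcf12 bind E-box sequences and, with Foxo1, turn on Ebf1, and Ebf1 in turn activates Pax5, which commits the cell to the B lineage. Ikzf1 and Ikzf3 encode the zinc finger proteins Ikaros and Aiolos, which restrain proliferation at the pre-B stage. Bach2 is a repressor that acts at the pre-B receptor checkpoint and in later B cells, and Lef1 and Sox4 are HMG-box factors that sustain survival and growth of B-cell progenitors. On build NCBIM37 (mm9) with the GENCODE vM1 annotation, the 10 protein-coding genes lie at chr11:44430819-44821593 (Ebf1), chr4:44544017-44724318 (Pax5), chr10:79872259-79896392 (Tcf3), chr9:71692059-71959626 (Tcf12), chr3:52072259-52154031 (Foxo1), chr11:11585006-11672929 (Ikzf1), chr11:98326216-98407345 (Ikzf3), chr4:32325779-32673083 (Bach2), chr3:130813389-130927274 (Lef1) and chr13:29040788-29045582 (Sox4).

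Total counts lay between 30031100 and 53453055 a library, and each replicate 1 library was deeper than each replicate 2 library. The defining genes of the sorted cells were present in wild type cells, but those for the surrogate light chain of the pre-B receptor were close to the floor in the first malignant library, with Vpreb1 at 0.146 CPM and Igll1 at 0.167 CPM where 3 counts amount to 0.0628 CPM. The summed level of 8 pre-B markers was 6110 and 6840 CPM in wild type, 3020 and 3000 CPM in premalignant and 2870 and 2530 CPM in malignant libraries. The summed level of 5 markers of later B cells was 463 and 591, 1240 and 1340, and 1300 and 2920 CPM. The rise of this sum lay mostly in Cd74 and H2-Aa, of MHC class II. In malignant against wild type cells Ms4a1, Fcer2a and Cr2 fell, with log2 fold changes of -1.31, -3.0 and -2.01. In premalignant cells Fcer2a and Cr2 fell too, whereas Ms4a1 was at 180 and 232 CPM, against 93.4 and 175 CPM in wild type. Sums over 8 myeloid markers were 779 and 1710, 233 and 249, and 55.5 and 113 CPM, those over 5 erythroid markers 293 and 1080, 59.9 and 138, and 52.3 and 57.5 CPM, and those over 7 T-cell markers 89.4 and 44.9, 33.1 and 15.5, and 1.40 and 15.9 CPM. These sums moved with the stage, as did the factors, and their part in the results was not tested. In such bulk samples, fewer cells of a type and less RNA per cell cannot be told apart.

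The promoters of the 5 factors with the lowest malignant level relative to wild type are shown so that their sequence can be read beside the levels, with E-boxes, the sites of the E proteins, marked. They are the 250 bases before the start of the gene in RefSeq, on build GRCm38.p6 and written along the gene's strand, with each E-box (CANNTG) in capitals. They lie at chr11:44617850-44618099 on the plus strand for Ebf1, chr3:52268087-52268336 on the plus strand for Foxo1, chr4:32417185-32417434 on the plus strand for Bach2, chr3:131110047-131110296 on the plus strand for Lef1 and chr13:28953700-28953949 on the minus strand for Sox4.
Ebf1: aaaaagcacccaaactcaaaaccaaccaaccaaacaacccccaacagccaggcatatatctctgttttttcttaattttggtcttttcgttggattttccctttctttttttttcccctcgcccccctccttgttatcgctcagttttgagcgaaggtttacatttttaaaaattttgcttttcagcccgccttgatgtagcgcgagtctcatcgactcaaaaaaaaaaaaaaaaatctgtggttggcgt
Foxo1: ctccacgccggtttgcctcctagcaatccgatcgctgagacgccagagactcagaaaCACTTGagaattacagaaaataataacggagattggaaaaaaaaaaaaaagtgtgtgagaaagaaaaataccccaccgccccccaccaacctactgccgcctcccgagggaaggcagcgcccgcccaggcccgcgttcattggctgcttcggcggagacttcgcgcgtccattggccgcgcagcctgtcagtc
Bach2: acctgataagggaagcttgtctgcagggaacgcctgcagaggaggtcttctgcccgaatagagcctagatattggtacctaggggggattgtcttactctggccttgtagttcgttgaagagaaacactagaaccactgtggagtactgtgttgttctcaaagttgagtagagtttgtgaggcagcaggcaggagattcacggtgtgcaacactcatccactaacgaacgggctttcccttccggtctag
Lef1: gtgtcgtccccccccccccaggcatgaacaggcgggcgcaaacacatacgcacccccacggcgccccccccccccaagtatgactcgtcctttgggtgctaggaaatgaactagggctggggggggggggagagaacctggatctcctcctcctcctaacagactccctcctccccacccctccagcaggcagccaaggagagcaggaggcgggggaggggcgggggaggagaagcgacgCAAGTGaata
Sox4: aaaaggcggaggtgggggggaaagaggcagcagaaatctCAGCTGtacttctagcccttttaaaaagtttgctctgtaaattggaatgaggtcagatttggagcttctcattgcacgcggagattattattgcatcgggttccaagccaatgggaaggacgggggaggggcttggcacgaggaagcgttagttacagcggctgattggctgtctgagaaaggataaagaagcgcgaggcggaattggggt

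Foxo1, Lef1 and Sox4 each held 1 E-box in this window, beginning 193, 10 and 211 bases before the start, whereas Ebf1 and Bach2 held none. Of the 9 factors with a promoter in the RefSeq table (Ikzf3 was not in it), 6 held CANNTG, which is found in 66.1% of the 27025 promoters of that length on either strand. The subset of E-boxes that Myc prefers, CACGTG, which is also a match to CANNTG, was in 0 of the 9 and in 6.04% of all promoters. The core CCCNNGGG of Ebf1 sites was found for Foxo1 and Ikzf1, or 2 of 9, and in 11.6% of all promoters. The Lef1 core CTTTGA was found for Bach2 (14.1% of all), the Ikaros core TGGGAA for Sox4 (21.5% of all), and the Foxo core GTAAACA for 0 of the 9 (3.06% of all). A match describes letters in this window and is not a measured site.

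To ask when in the progression the factors changed, each stage was compared with the others by edgeR's quasi-likelihood test over 16683 genes. A call required an adjusted p no higher than 0.1 and a log2 fold change no smaller in size than 0.5. In premalignant against wild type cells, 5 of the 10 factors were called lower, where 20.3% of all genes tested were called lower and 19% higher. In malignant against wild type cells, 9 of 10 were called lower, beside a background of 24.3% lower and 24.9% higher. Between malignant and premalignant cells, 2 of 10 were called lower, beside 2.45% lower and 3.73% higher over all genes. The count of factors called higher was 0 in each comparison, and it was also 0 at an unadjusted p under 0.05 with edgeR and with DESeq2. The median log2 fold change of the 10 factors was -0.86, -1.59 and -0.40 in these comparisons, beside -0.08, -0.02 and 0.04 over all genes tested. The comparisons with wild type share the wild type libraries. Summed over the 10 factors, the level was 5176 and 5458 CPM in wild type, 3164 and 3250 CPM in premalignant and 2502 and 2258 CPM in malignant libraries, so the stages did not overlap.

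**Figure D1:**
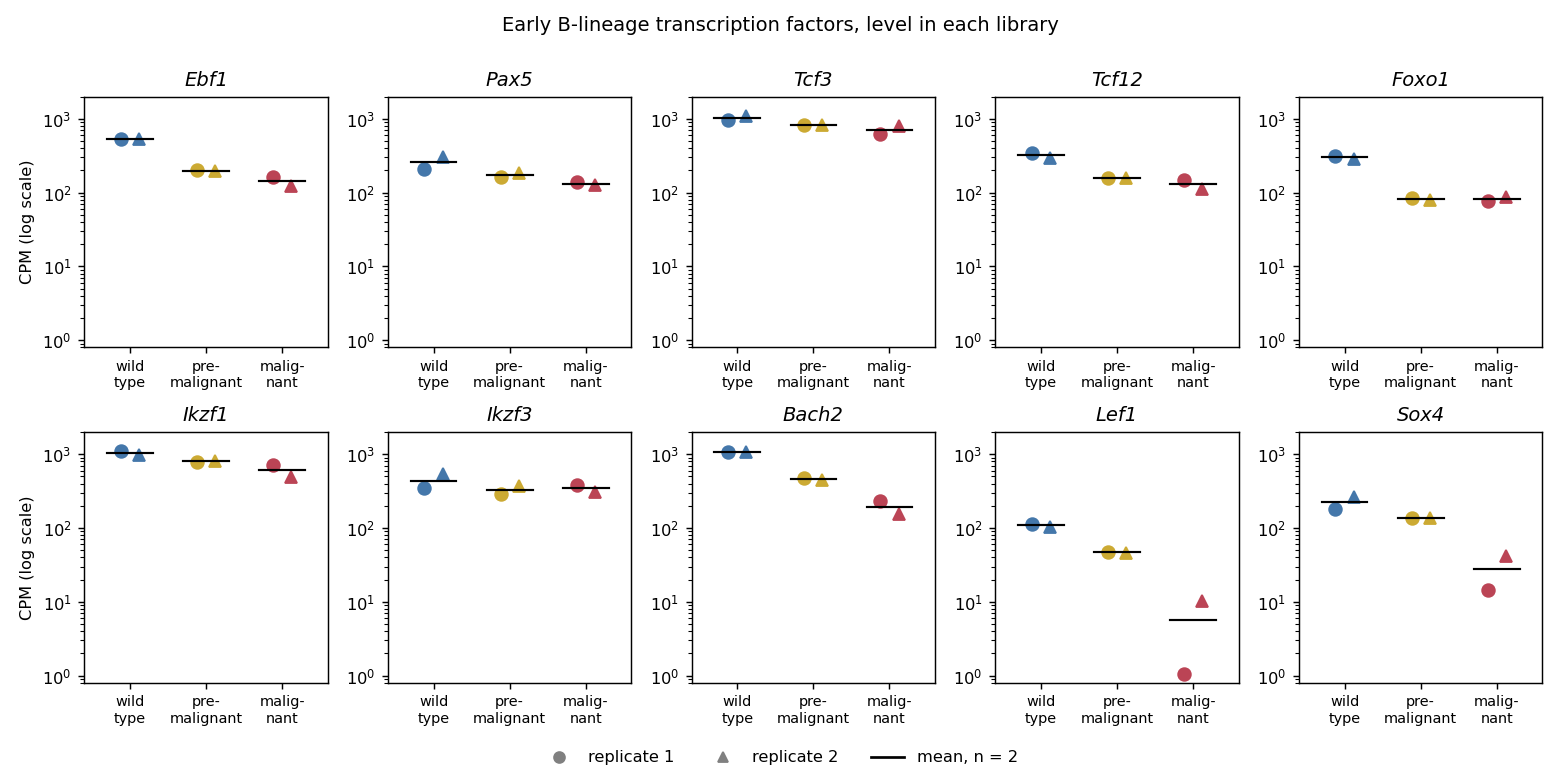
Level of each factor in each of the 6 libraries, in CPM on a log axis, by stage; circles and triangles are replicates 1 and 2 and the bar is the mean of 2. Foxo1 sits at 289 and 311 CPM in wild type and between 76.9 and 87.7 CPM in the other 4 libraries, while Lef1 and Sox4 drop furthest in malignant cells.

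**Figure D2:**
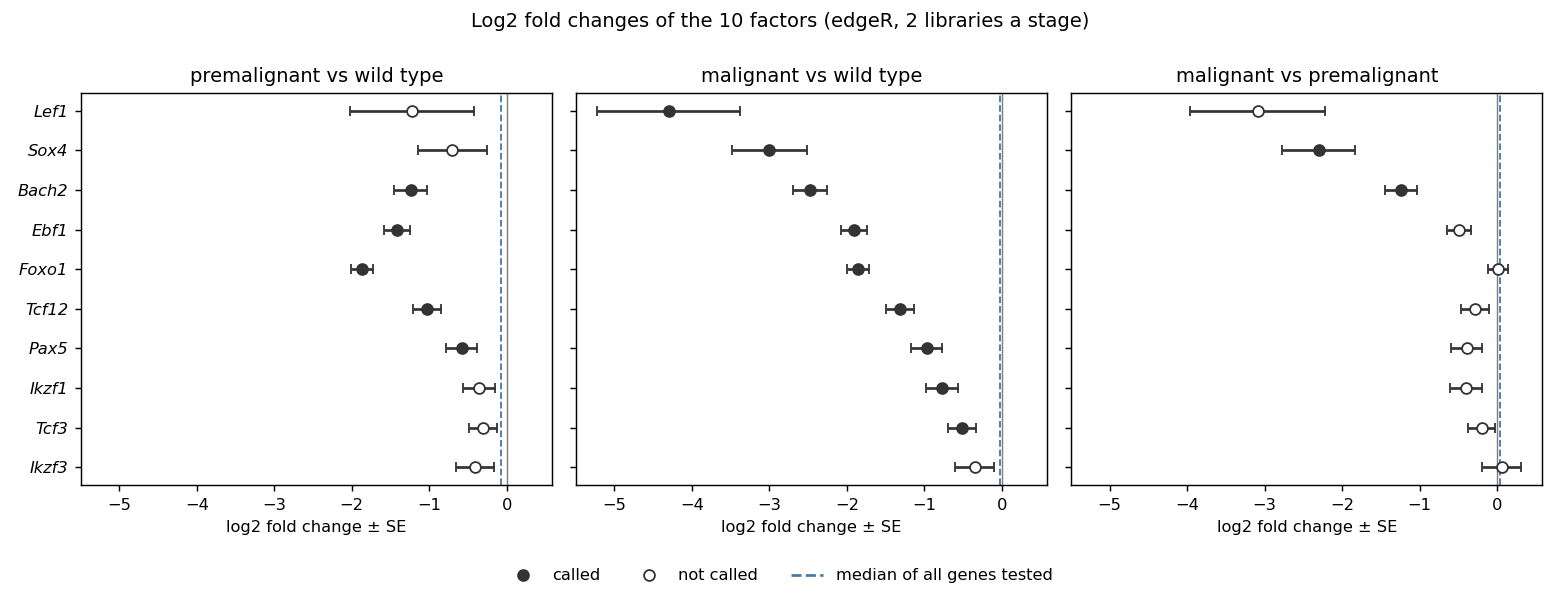
Log2 fold change with its standard error for each factor in the 3 comparisons; filled points passed the call, open points did not, and the dashed line is the median of all genes tested. Premalignant against wild type, 5 points are filled, all to the left of 0, and malignant against premalignant only Bach2 and Sox4 are filled.

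Among the E proteins, Tcf12 fell in premalignant cells and Tcf3 passed the call only in malignant cells. Tcf12, which encodes HEB, was at 349.6 and 298 CPM in wild type, 157 and 159.8 CPM in premalignant and 149.7 and 111 CPM in malignant libraries. Both wild type libraries stood above the other 4, and premalignant cells kept 49.0% and malignant cells 40.2% of the wild type level. The log2 fold changes were -1.03 ± 0.18 (SE, edgeR adjusted p = 0.0104) and -1.31 ± 0.18 (edgeR adjusted p = 0.00307), and the first was -1.04 and not called without premalignant replicate 2 (edgeR adjusted p = 0.103). Tcf3, which encodes E12 and E47, was at 951 and 1080 CPM in wild type, 818 and 814 CPM in premalignant and 622 and 801 CPM in malignant libraries. The stages did not overlap, but the steps were small. Tcf3 changed by -0.31 ± 0.18 in premalignant cells, which was not called (edgeR adjusted p = 0.216), and by -0.51 ± 0.18 in malignant cells, just past the fold set for a call (edgeR adjusted p = 0.0565). The malignant call for Tcf3 was lost without any one library other than malignant replicate 2, with adjusted p values of edgeR from 0.0822 (and a log2 fold change of -0.33) without malignant replicate 1 to 0.232 without wild type replicate 2. Within a library, the log2 ratio of Tcf3 to Tcf12 per length was 1.71 and 2.13 in wild type, 2.65 and 2.62 in premalignant and 2.32 and 3.12 in malignant cells. The wild type ratios lay below the other 4.

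The Id genes, whose products bind E proteins and keep them from DNA, went in opposite directions. Id2 was at 25.5 and 24.6 CPM in wild type, 2.80 and 2.38 CPM in premalignant and 0.858 and 1.69 CPM in malignant libraries. Id3 was at 41.3 and 53.3, 77.2 and 85.3, and 67.7 and 105 CPM. Every wild type library was thus above the others for Id2 and below them for Id3. Id2 fell, with log2 fold changes of -3.27 in premalignant cells (edgeR adjusted p = 0.00313) and -4.32 in malignant cells (edgeR adjusted p = 0.000984). Id3 rose by 0.78 on the log2 scale (edgeR adjusted p = 0.055) and 0.87 (edgeR adjusted p = 0.0306). Id1 was low throughout, at 1.07 and 2.07 CPM in wild type cells and at most 0.331 CPM in the others, and was called lower in both.

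Ebf1 showed a drop already at the premalignant stage. It was at 528 and 537 CPM in wild type, 204 and 194 CPM in premalignant and 160.4 and 123 CPM in malignant libraries. The stages did not overlap, and the premalignant level was 37.3% and the malignant level 26.6% of wild type. The changes from wild type were -1.42 ± 0.17 (edgeR adjusted p = 0.0033) and -1.91 ± 0.17 (edgeR adjusted p = 0.00088), and both were called under each of the 16 alternative settings. The further step of -0.49 ± 0.16 from premalignant to malignant cells was not called (edgeR adjusted p = 0.177). It was called by DESeq2 at -0.52 (DESeq2 adjusted p = 0.0279) and by edgeR without malignant replicate 1, at -0.70 (edgeR adjusted p = 0.0249).

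Pax5, the target of Ebf1 that fixes B-cell commitment, changed less. It was at 211 and 309 CPM in wild type, 164 and 185 CPM in premalignant and 139 and 126 CPM in malignant libraries. The stages did not overlap, though the wild type libraries differed from each other by more than those of the other stages. The level was 67.0% and 51% of wild type, with log2 fold changes of -0.58 ± 0.20 (edgeR adjusted p = 0.0752) and -0.97 ± 0.20 (edgeR adjusted p = 0.0115). The premalignant call for Pax5 was lost without wild type replicate 2, at -0.28 (edgeR adjusted p = 0.321), without premalignant replicate 1, at -0.48 (edgeR adjusted p = 0.331), and without premalignant replicate 2, at -0.66 (edgeR adjusted p = 0.231). Per length, the log2 ratio of Ebf1 to Pax5 was -0.19 and -0.71 in wild type, -1.20 and -1.44 in premalignant and -1.30 and -1.55 in malignant cells. The wild type ratios were above the other 4, so Ebf1 was reduced relative to Pax5 in both transgenic stages.

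Foxo1, the forkhead factor that drives Rag and Il7r expression and is held inactive by PI3K and AKT signalling, had the largest premalignant fall of the 10 in this fit. It was at 311 and 289 CPM in wild type, 84.2 and 79.6 CPM in premalignant and 76.9 and 87.7 CPM in malignant libraries. The 4 transgenic libraries overlapped with each other and were far below wild type. The premalignant and malignant levels were 27.3% and 27.5% of wild type, and the log2 fold changes were -1.87 ± 0.14 (edgeR adjusted p = 0.00159) and -1.86 ± 0.14 (edgeR adjusted p = 0.00064). Both were called under each of the 16 alternatives. Malignant and premalignant cells differed by 0.01 ± 0.13 (edgeR adjusted p = 0.988), and the difference was negative with RLE (-0.01) and upper-quartile (-0.08) normalization. Of the other Foxo genes tested, Foxo3 and Foxo4 fell less far and Foxo6 rose from a low level. Foxo3 was at 80.5 and 82.9, 45.5 and 43.9, and 37.8 and 49.1 CPM, with log2 fold changes of -0.87 in premalignant cells (edgeR adjusted p = 0.0127) and -0.91 in malignant cells (edgeR adjusted p = 0.00711), and those of Foxo4 were -0.76 and -1.08 (edgeR adjusted p = 0.0188 and 0.00413). Foxo6 was at 0.0526 and 0.0566 CPM in wild type (3 and 2 counts), 0.495 and 0.392 CPM in premalignant and 0.439 and 0.143 CPM in malignant libraries, and was called higher in both stages, at 2.97 and 2.42 (edgeR adjusted p = 0.0277 and 0.0413).

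Of the Ikaros genes, Ikzf1 was called in malignant cells and Ikzf3 in no comparison. Ikzf1 was at 1096 and 977 CPM in wild type, 793 and 818 CPM in premalignant and 722 and 495.5 CPM in malignant libraries. The stages did not overlap, and the malignant libraries were the most spread. The change of -0.36 ± 0.21 in premalignant cells was not called (edgeR adjusted p = 0.226). Ikzf1 fell by 0.77 ± 0.21 in malignant cells (edgeR adjusted p = 0.0269), but not past the call without wild type replicate 1, at -0.68 (edgeR adjusted p = 0.124), or without malignant replicate 2, at -0.50 and just short of the fold set for a call (edgeR adjusted p = 0.0246). Ikzf3, which rises as pre-B cells mature, was at 349 and 532, 290.4 and 373, and 385 and 308 CPM. Its stages overlapped in each comparison, and it was the only one of the 10 factors called in none, with changes from wild type of -0.41 ± 0.25 (edgeR adjusted p = 0.253) and -0.35 ± 0.25 (edgeR adjusted p = 0.309). The log2 ratio of Ikzf1 to Ikzf3 per length was 2.22 and 1.44 in wild type, 2.01 and 1.70 in premalignant and 1.47 and 1.25 in malignant cells, and wild type overlapped both other stages. Of the relatives, Ikzf2 (Helios) was at 6.94 and 3.37 CPM in wild type and at most 1.05 CPM in the other libraries, and fell in both stages, at -2.63 and -4.25 (edgeR adjusted p = 0.0381 and 0.00821), whereas Ikzf5 lay between 40.7 and 56.2 CPM in all 6 and was not called.

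**Figure D3:**
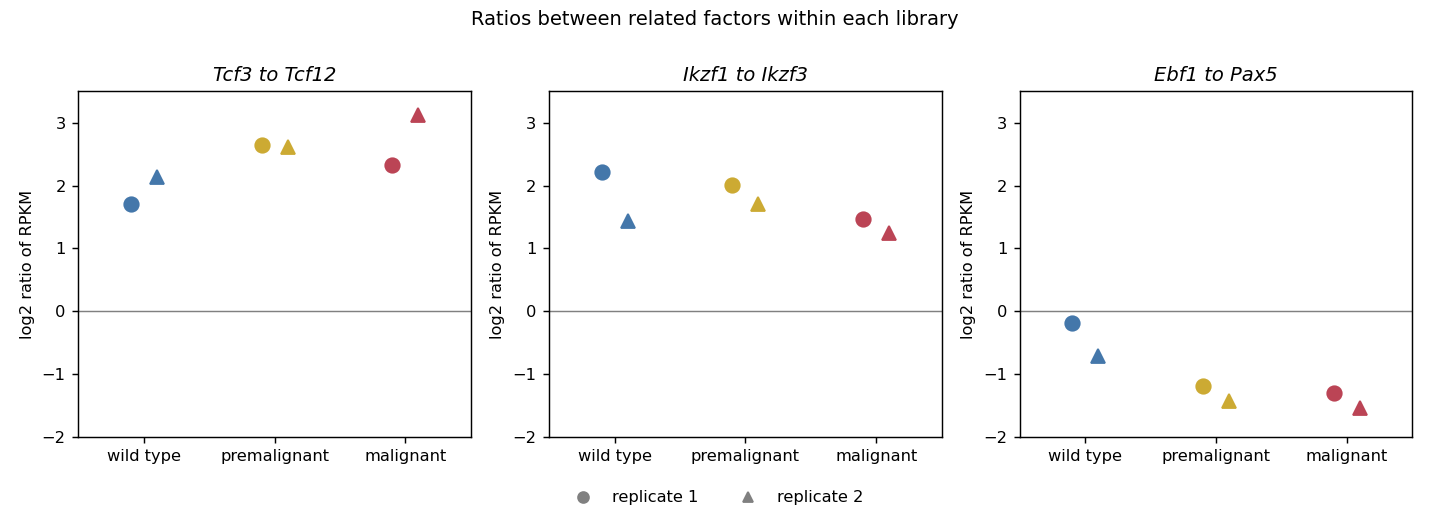
Log2 ratio of the level per length (RPKM) of 2 related factors within each library, by stage; circles and triangles are replicates 1 and 2. Both wild type points lie below the other 4 for Tcf3 to Tcf12 and above them for Ebf1 to Pax5, and the stages overlap for Ikzf1 to Ikzf3 except malignant against premalignant.

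Bach2 was the one factor called in all 3 comparisons. It was at 1085 and 1071 CPM in wild type, 469.8 and 442 CPM in premalignant and 232 and 154 CPM in malignant libraries. The 3 stages stood apart in steps, at 42.3% and then 17.9% of wild type. The log2 fold changes were -1.24 ± 0.21 in premalignant against wild type (edgeR adjusted p = 0.00957), -2.48 ± 0.22 in malignant against wild type (edgeR adjusted p = 0.00092) and -1.24 ± 0.21 in malignant against premalignant cells (edgeR adjusted p = 0.0456). The first was -1.19 and not called without premalignant replicate 2 (edgeR adjusted p = 0.104). The last was not called in the fit of only the 2 stages compared. Without any one wild type or premalignant library it kept a size between -1.20 and -1.28 but lost the call. Reads of the antisense transcript BC024582, which shares 537 exonic bases with Bach2, cannot be told apart from those of Bach2 if the counting ignored strand, and it was itself counted at 1.38 to 24.6 CPM. Its family member Bach1 fell as well, at -0.68 and -0.61 from wild type (edgeR adjusted p = 0.0277 and 0.0286).

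Lef1 and Sox4 reached the lowest malignant levels of the 10, with malignant libraries that differed widely. Lef1, which acts with beta-catenin at Wnt targets, was at 114 and 104 CPM in wild type, 47.3 and 46.4 CPM in premalignant and 1.07 and 10.3 CPM in malignant libraries. Sox4 was at 183 and 262, 137 and 138, and 14.7 and 41.3 CPM. The stages did not overlap for either gene, and the first malignant library was the lowest of the 6 for both. Malignant levels were 5.19% of wild type for Lef1 and 12.6% for Sox4, with log2 fold changes of -4.30 ± 0.92 (edgeR adjusted p = 0.012) and -3.00 ± 0.48 (edgeR adjusted p = 0.00481). Both were called under each of the 16 alternatives, from -6.65 to -3.40 for Lef1 and from -3.89 to -2.42 for Sox4.

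At the premalignant stage Lef1 was at 43.0% and Sox4 at 61.7% of wild type, and neither was called, at -1.22 ± 0.80 (edgeR adjusted p = 0.287) and -0.70 ± 0.45 (edgeR adjusted p = 0.279). These standard errors come from a spread shared with the malignant libraries. Fitted with wild type and premalignant libraries alone, Lef1 changed by -1.16 (edgeR adjusted p = 0.000691) and Sox4 by -0.64 (edgeR adjusted p = 0.0295), both past the call. The same held for Lef1 without malignant replicate 1 (edgeR adjusted p = 0.00052) or 2 (0.000622), and for Sox4 (edgeR adjusted p = 0.0208 and 0.0261). From premalignant to malignant cells Sox4 fell by 2.30 ± 0.47 (edgeR adjusted p = 0.0673). This call for Sox4 was lost in the fit of only these 2 stages and at an FDR of 0.05. It was also lost without any one wild type or premalignant library. Lef1 changed by -3.09 ± 0.87 and was not called (edgeR adjusted p = 0.131). Of the 16 alternatives, 4 called Lef1 here. They were DESeq2, no filter on low counts, and the fits without malignant replicate 1, at -2.19, or without malignant replicate 2, at -5.49. Without any one wild type or premalignant library Lef1 stayed uncalled. The antisense gene Gm17419 shares 2616 of the 4795 exonic bases of Sox4 and was counted at 0 in all 6 libraries, so the level of Sox4 per length is uncertain.

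The other genes of the Lef1 family fell at the premalignant stage. Tcf7, which encodes TCF-1, was at 22.0 and 13.2 CPM in wild type, 2.23 and 2.32 CPM in premalignant and 4.92 and 3.33 CPM in malignant libraries. Tcf7l2 was at 11.8 and 10.3, 1.94 and 2.23, and 1.99 and 0.825 CPM. Both wild type libraries were above the other 4 for both genes. The log2 fold changes from wild type were -2.95 and -2.09 for Tcf7 (edgeR adjusted p = 0.00415 and 0.0062) and -2.41 and -2.96 for Tcf7l2 (edgeR adjusted p = 0.0129 and 0.00465). Tcf7 and Lef1 are also T-cell genes. Of the 7 T-cell markers, 4 were called lower in premalignant and 5 in malignant against wild type cells, beside 20.3% and 24.3% of all genes. Their summed levels were 44.9 to 89.4 CPM in wild type, 15.5 to 33.1 CPM in premalignant and 1.40 to 15.9 CPM in malignant libraries. Cd3d, Cd3e, Cd3g and Trac were the 4 called in premalignant cells, at 0.651 to 3.35 CPM in wild type libraries and at most 0.711 CPM in the others, with Trac and Cd3e at 0 in 1 library each. Cd4 and Thy1 were highest in wild type replicate 1, at 48.7 and 22.5 CPM. Cd8a was instead highest in premalignant replicate 1, at 17.8 CPM, against 8.5 and 5.6 CPM in wild type. Cd4 was called lower in malignant cells only, and Thy1 and Cd8a in neither stage. The part of these markers in the levels of Tcf7 and Lef1 was not tested. Sox12, of the Sox4 family, rose from 6.61 and 5.13 CPM to 29.0 and 25.4 CPM in premalignant and 29.96 and 12.2 CPM in malignant cells, by 2.21 and 1.85 on the log2 scale (edgeR adjusted p = 0.0137 and 0.0161).

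**Figure D4:**
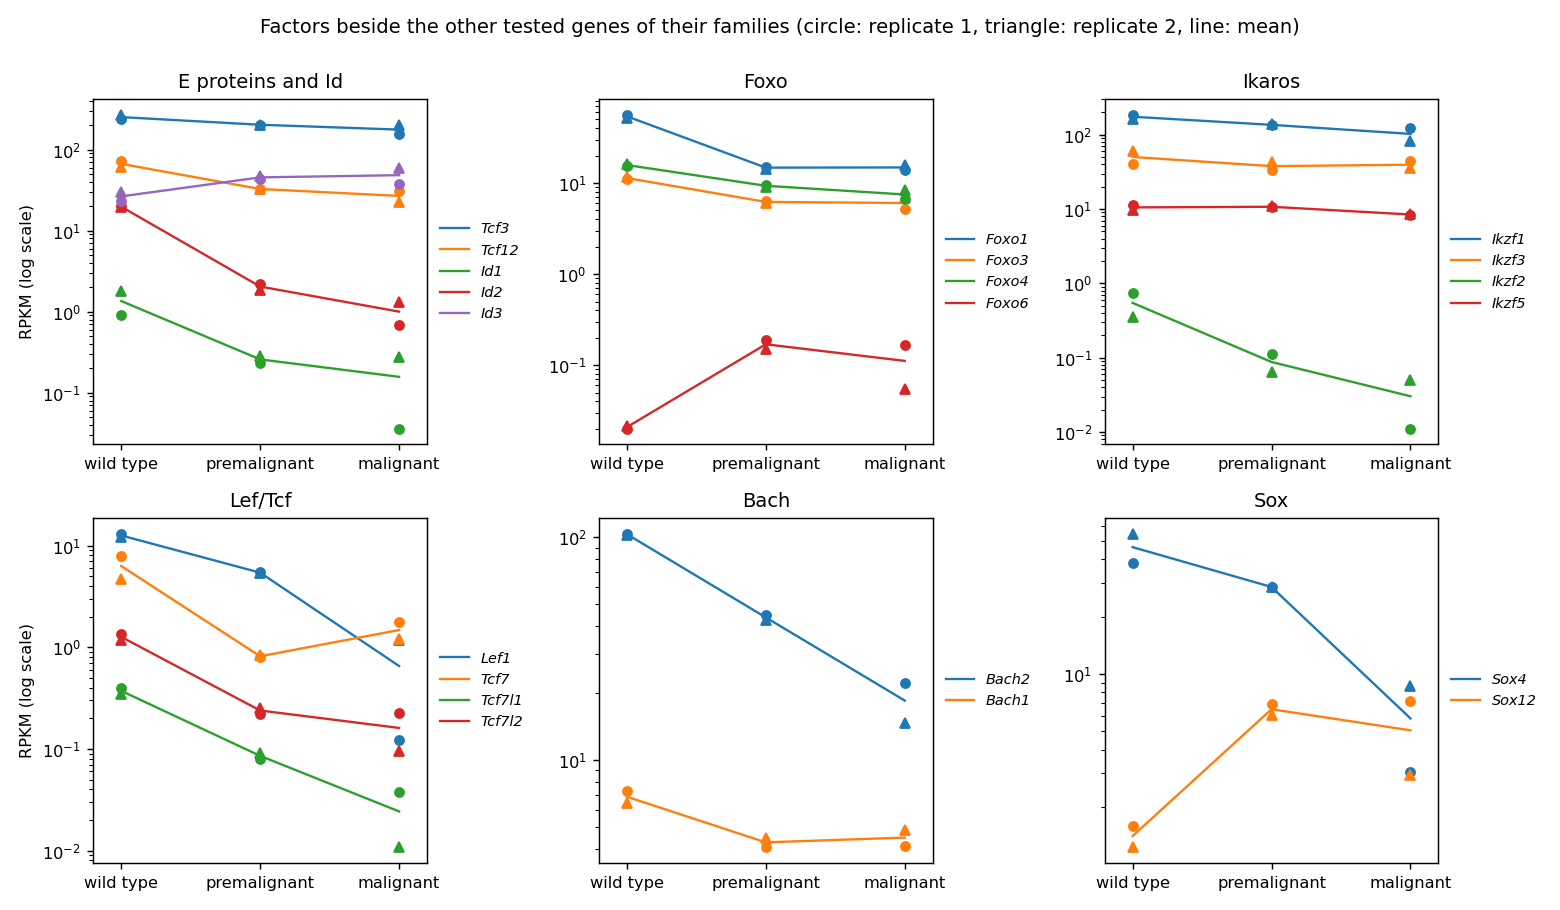
Level per length (RPKM, log axis, a scale of its own in each panel) of the factors and the tested genes of their families by stage; circles and triangles are replicates 1 and 2 and lines join the means. Id2 and Id3 move apart, and Lef1 falls below the mean of Tcf7 in malignant cells. Sox12 lies above wild type in both transgenic stages, while Sox4 is lowest in malignant cells. The mean of Sox12 is not higher in malignant than in premalignant cells.

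Over the whole list of 19 relatives and Id genes, 13 could be tested, and 9 were called lower and 3 higher in premalignant as well as in malignant against wild type cells, beside 20.3% and 19% of all genes called lower and higher in the first comparison and 24.3% and 24.9% in the second. Between malignant and premalignant cells 2.45% of all genes tested were called lower and 3.73% higher. Of the 13, edgeR called 0 there, with 2 lower at an unadjusted p under 0.05, and DESeq2 called 1. That count was 3 lower without malignant replicate 1, and 4 lower and 1 higher without malignant replicate 2. Without premalignant replicate 1 or without premalignant replicate 2 the premalignant counts were 2 lower and 1 higher, without wild type replicate 1 they were 5 and 1, and without wild type replicate 2 they were 6 and 0. The malignant counts of higher genes dropped to 1 without either wild type library.

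Per length, the order of the factors shifted with stage. In wild type cells the order ran from Tcf3 at 251 ± 22.6 RPKM (SD, n = 2) through Ikzf1 at 175 ± 14.2, Bach2 at 103 ± 0.975, Pax5 at 75.9 ± 20.0, Tcf12 at 66.6 ± 7.57, Ebf1 at 54.6 ± 0.684, Foxo1 at 54.0 ± 2.78, Ikzf3 at 50.3 ± 14.8 and Sox4 at 46.4 ± 11.7 to Lef1 at 12.6 ± 0.793. Pax5 and Tcf12 overlapped, as did each neighbouring pair from Ebf1 to Sox4. In premalignant cells Tcf3 at 202 ± 0.777 and Ikzf1 at 136 ± 3.06 RPKM were followed by Pax5 at 50.9 ± 4.37 and Bach2 at 43.7 ± 1.87, overlapping Ikzf3 at 37.9 ± 6.64, then by Tcf12 at 32.6 ± 0.403, Sox4 at 28.6 ± 0.203, Ebf1 at 20.4 ± 0.704, Foxo1 at 14.8 ± 0.59 and Lef1 at 5.42 ± 0.0742. In malignant cells Tcf3 and Ikzf1 still led, at 176 ± 31.4 and 103 ± 27.1 RPKM, followed by Ikzf3 at 39.6 ± 6.19 and Pax5 at 38.7 ± 2.61, which overlapped, and by Tcf12 at 26.8 ± 5.65. Bach2, Foxo1 and Ebf1 then lay at 18.5 ± 5.31, 14.8 ± 1.38 and 14.5 ± 2.73 RPKM, each overlapping the next, above Sox4 at 5.84 ± 3.93 and Lef1 at 0.654 ± 0.751. Against all tested genes with an exon length, Tcf3 stood above 99.2% in wild type and 98.1% in malignant cells. Ebf1 went from above 94.3% to above 72.4%, Sox4 from 93.0% to 54.9% and Lef1 from 71.4% to 27.7%.

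The genes whose pattern over the 6 libraries came closest to that of Ebf1, by the root mean square difference of centred log2(CPM + 0.5) among 8883 genes, were Gm13012 (0.107), Klhl6 (0.115) and Siglecg (0.127). For Pax5 they were 1110021J02Rik (0.036), Unc45a (0.043) and Gys1 (0.073).

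Genes known as activated by E proteins, Ebf1, Pax5 or Foxo1 were mostly lower. Of 18, 13 were called lower in premalignant against wild type cells, and 14 were called lower and 1 higher in malignant against wild type cells, with medians of -1.12 and -1.67. Over all genes tested, 20.3% and 24.3% were called lower in these comparisons, and the medians were -0.08 and -0.02. Rag1, which with Rag2 encodes the recombinase of antigen receptor genes, was at 1945 and 1798 CPM in wild type, 329 and 286 CPM in premalignant and 154 and 56.8 CPM in malignant libraries. Il7r, the receptor for the growth factor IL-7, was at 495 and 397, 100 and 71.5, and 29.5 and 41.7 CPM. Neither gene overlapped between stages, and both fell from wild type in each transgenic stage. The log2 fold changes were -2.61 and -4.15 for Rag1 (edgeR adjusted p = 0.00947 and 0.00168), -1.41 and -2.77 for Rag2 (edgeR adjusted p = 0.0838 and 0.00919) and -2.38 and -3.65 for Il7r (edgeR adjusted p = 0.00276 and 0.000656). Vpreb1 and Igll1, of the surrogate light chain, fell in premalignant cells, at -4.06 and -3.78 (edgeR adjusted p = 0.0336 and 0.0569).

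Cd79a, a signalling chain of the B-cell receptor, changed less. It was at 1103 and 1480 CPM in wild type, 802 and 867 CPM in premalignant and 732 and 834 CPM in malignant libraries, and fell in both stages, at -0.63 and -0.72 (edgeR adjusted p = 0.0493 and 0.0245). Cd22 was the gene called higher in malignant cells, by 0.90 (edgeR adjusted p = 0.0232). Between malignant and premalignant cells 2 of the 18 were called lower, Il7r at -1.27 (edgeR adjusted p = 0.0608) and Cd72 at -1.40 (edgeR adjusted p = 0.0322). Over all genes tested, 2.45% were called lower and 3.73% higher in that comparison. The premalignant count of 13 lower was 4 without premalignant replicate 1, 3 without premalignant replicate 2 and 7 without wild type replicate 2. Of the 2 called between malignant and premalignant cells, 1 was left without either wild type library and 0 without either premalignant library. There were 6 lower and 1 higher without malignant replicate 1, 8 and 3 without malignant replicate 2, and 5 and 1 with DESeq2. Against wild type, the malignant count of higher genes was 2 without malignant replicate 2.

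Genes that Pax5 is known to repress were also lower rather than higher. Of 10, 9 were called lower in premalignant cells, and 6 lower and 1 higher in malignant cells, with medians of -1.96 and -1.86. The shares over all genes tested were 20.3% lower in premalignant cells, and 24.3% lower and 24.9% higher in malignant cells. In both comparisons 8 of 8 myeloid markers and 4 of 5 erythroid markers were called lower as well. Of 7 T-cell markers, 4 were called lower in premalignant cells and 5 in malignant cells. The part of other cell types in the levels of the Pax5-repressed genes was not tested. Prdm1, the plasma cell regulator, was at 6.87 and 5.80 CPM in wild type, 0.400 and 0.392 CPM in premalignant and 0.377 and 1.33 CPM in malignant libraries. It fell in both stages, at -3.99 and -2.92 (edgeR adjusted p = 0.00785 and 0.0114). Csf1r, a myeloid receptor that is also on the list of myeloid markers, was at 4.28 and 8.10, 0.896 and 1.75, and 0.314 and 1.43 CPM, and Ccl3 was at 1.53 and 2.38 CPM in wild type cells and at 0 in both malignant libraries. Emb, which encodes embigin, went both ways. It was at 15.4 and 16.3 CPM in wild type, 7.72 and 8.13 CPM in premalignant and 50.4 and 54.8 CPM in malignant libraries, so that premalignant cells were lowest and malignant cells highest. It fell by 1.00 in premalignant cells (edgeR adjusted p = 0.00735) and rose by 1.73 in malignant against wild type (edgeR adjusted p = 0.000984) and by 2.73 in malignant against premalignant cells (edgeR adjusted p = 0.00985), the last not called without either premalignant library. The premalignant count of 9 was 5 without wild type replicate 1 or premalignant replicate 1, and 4 without premalignant replicate 2.

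**Figure D5:**
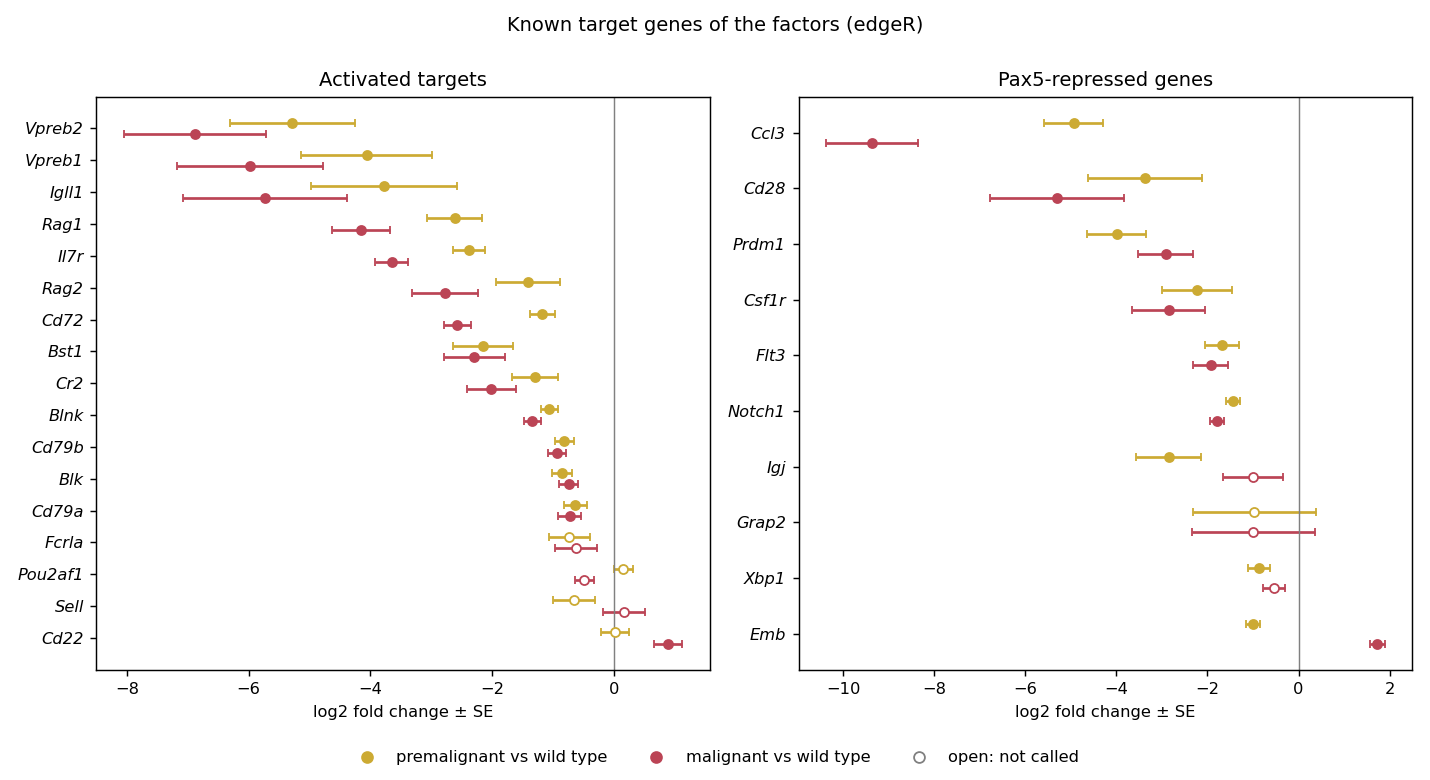
Log2 fold change with its standard error of genes known as activated by these factors and of 10 known as repressed by Pax5, premalignant and malignant against wild type; open points were not called. Most points of both lists lie left of 0, and Cd22 and Emb are called to the right in malignant cells.

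Among proteins that the factors act with, more were called higher than lower. Of 18 partners, 7 were called higher and 2 lower against wild type in both transgenic stages, with medians of 0.38 and 0.49. Over all genes tested, 19% were called higher and 20.3% lower in premalignant cells, and 24.9% and 24.3% in malignant cells. With upper-quartile normalization the malignant counts were 6 higher and 3 lower, and the premalignant count of lower partners was 1 without either premalignant library. Mta1, of the NuRD complex that Ikaros and Aiolos recruit, was at 67.2 and 67.2 CPM in wild type, 143 and 135 CPM in premalignant and 162 and 217 CPM in malignant libraries. Rbbp7, also of NuRD, was at 211 and 147, 395 and 416, and 391 and 417 CPM. Both wild type libraries were the lowest for each. Mta1 rose by 1.05 and 1.5 (edgeR adjusted p = 0.00777 and 0.00161) and Rbbp7 by 1.18 and 1.17 (edgeR adjusted p = 0.00827 and 0.00522). Mafg, a small Maf protein that pairs with Bach2, rose by 1.22 and 1.70 (edgeR adjusted p = 0.0103 and 0.00228). The Groucho co-repressors split, as Tle1 rose by 1.13 and 1.63 (edgeR adjusted p = 0.0198 and 0.00413), and Tle2 and Tle4 were the 2 called lower.

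Of 19 other transcription factors of early lymphoid cells, 6 were called lower in premalignant cells, and 8 lower and 1 higher, Pou2f2, in malignant cells. Their medians were -0.35 and -0.46. These counts stand beside 20.3% of all genes called lower in premalignant cells, and 24.3% lower and 24.9% higher in malignant cells. Myb, needed by B-cell progenitors, was at 1203 and 1297 CPM in wild type, 422 and 358 CPM in premalignant and 266 and 264 CPM in malignant libraries. Spib, an Ets factor, was at 1585 and 1726, 754 and 750.1, and 383 and 410.4 CPM. Both genes fell in steps with no overlap between stages. Between malignant and premalignant cells, 2.45% of all genes tested were called lower and 3.73% higher. Spib was the only one of the 19 called there, where it fell by 0.92 (edgeR adjusted p = 0.0348). That call was lost without each wild type or premalignant library, while the count was 4 lower and 2 higher without malignant replicate 1, 7 lower without malignant replicate 2, 4 lower with DESeq2 and 3 lower with upper-quartile normalization. Erg was at 55.2 and 61.1 CPM in wild type and at most 3.70 CPM in the other libraries. Without premalignant replicate 1 or 2 the premalignant count was 2 of 19, and without wild type replicate 2 the malignant count was 5 lower. Without wild type replicate 1 Pou2f2 was not called.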

How the data were processed

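Polyadenylated RNA of 6 libraries was sequenced from TruSeq libraries as 50-bp single-end reads. By the methods, alignment was with TopHat and counting with HTSeq. The authors deposited raw counts, not normalized, for each Ensembl gene. The submitters' processing notes name CASAVA 1.8.2, Bowtie, HTSeq, DESeq and build mm9, with Bowtie where the methods name TopHat. HTSeq options and the strand setting are not given in the sources used here. The authors' own tables of fold changes and p-values were not used. Replicates are individual animals by the methods.

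Symbols, coordinates and exon lengths come from GENCODE vM1 on NCBIM37 (37205 of 37991 identifiers had a symbol). It may differ from the annotation counted on. Of Ebf1 and Sox4, a second identifier with 0 counts was left out. On the same strand, these identifiers share 453 exonic bases with Ebf1 and 405 with Sox4. The antisense transcript RP24-337A16.1, with at most 1 count in a library, shares 674 of the 5552 exonic bases of Foxo1. The levels per length of Ebf1 and Foxo1 are therefore uncertain, as for Sox4. All 6 libraries entered 1 edgeR 4.0.16 quasi-likelihood fit (R 4.3.3) with TMM normalization and filterByExpr, which left 16683 genes with all 10 factors among them. P-values were adjusted by Benjamini-Hochberg over these genes, and the calls use the study's thresholds, an FDR of 0.1 and an absolute log2 fold change of 0.5. SE is the absolute log2 fold change over the root of F. CPM uses TMM-scaled library sizes, and RPKM is that CPM per kb of exon. With 2 libraries a group, an exact permutation test of a single value cannot go below p = 0.333 (two-sided), so none was run. TMM takes most genes as unchanged. The fit was tested on simulated data with 1 spread per gene for all stages, whereas the median spread between replicates here differed by stage. That test cannot show how the fit behaves when the stages differ in spread.

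The factors and gene lists were chosen with earlier results of these data known. Besides the 10 factors, Myc and the likeness genes, the genes named are called genes of a list, at most the 4 with the largest absolute log2 fold change and a mean of 1 CPM or more in the stage where they are higher, plus genes whose role stands beside a factor. Foxo4, Foxo6, Ikzf5, Bach1, Sox12, Cd22, Cd72, Pou2f2, Tle4, Spib, Emb and the marker genes were named outside that rule after their values were seen. Alternatives were RLE and upper-quartile normalization, DESeq2 1.42.0, 2 other filters, fits of only the stages compared, a replicate block, other thresholds and leaving out each library. Of the fixed marker lists, Ighd was not matched. The result of 1 gene that the rule would name is not reported here. Promoters are RefSeq windows (GRCm38.p6), cut to the bases before the start. Depth of 30031100 to 53453055 counts puts 3 counts at 0.0526 to 0.1075 CPM.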

Additional observations from a re-analysis of the deposited data

How the results depend on the processing

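Of the 390 recomputed log2 fold changes of the 10 factors, 341 kept their direction and their side of the threshold. Settings that only move a threshold are not among these values. The count of factors called lower in malignant against wild type cells stayed between 6 and 9. In premalignant against wild type cells, where 5 were called, leaving out 1 library gave 2 to 7, with 2 (Ebf1 and Foxo1) without premalignant replicate 2. In malignant against premalignant cells, where 2 were called, DESeq2 gave 4, a fit of only these stages 0, an FDR of 0.05 gave 1 and leaving out 1 library 0 to 6. It was 0 without any wild type or premalignant library, 3 without malignant replicate 2 and 6 without malignant replicate 1. Fits without a library of a stage leave a lone sample that is assumed to vary like the others. Foxo1 in malignant against premalignant cells, at 0.01, turned to -0.01 (RLE), -0.08 (upper quartile), -0.02 (DESeq2 and the filter of 10 counts), -0.01 (only the 2 stages) and between -0.13 and 0.10 without 1 library. Ikzf3 there, at 0.06, turned to -0.02 with upper-quartile normalization and ranged from -0.11 to 0.26 without 1 library. The cause was not tested.

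With a replicate block the counts of factors called lower were 5, 9 and 2, with the same genes as without it. The replicate numbers are shared by the stages in the labels, but deviations of equal numbers correlated at 0.51, 0.186 and 0.257 over 16683 genes in only 2 pairs a comparison, and the labels name no batch, so the numbers were not taken as pairs. The block moved no count of all genes by over 1.5 times, but among the activated targets it moved the count in malignant against premalignant cells from 2 lower to 4 lower and 1 higher.

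Over all genes, malignant against premalignant cells gave 408 lower and 623 higher, 1028 and 1141 with DESeq2, 1372 and 1438 with no filter, 64 and 194 with only these stages, 68 and 176 without wild type replicate 1, 64 and 175 without wild type replicate 2, 0 and 0 without premalignant replicate 1 or 2, 1105 and 1563 without malignant replicate 1, and 2009 and 1796 without malignant replicate 2. Upper-quartile normalization gave 492 and 487, 49.7% higher in place of 60.4%, and in malignant against wild type cells moved the median of all genes from -0.02 to -0.19. Premalignant against wild type cells gave 3394 lower and 3169 higher, but 863 and 1231 without premalignant replicate 2, 993 and 1510 without premalignant replicate 1, and 1545 and 1740 without wild type replicate 2. The median absolute log2 difference between replicates was 0.258 (wild type), 0.159 (premalignant) and 0.413 (malignant).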
